A study of Homo sapiens with 12 samples.

Results

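The urokinase receptor and plasminogen activation genes examined here are PLAUR, PLAU, PLAT, SERPINE2, SERPINB2, MMP14, ANXA2 and S100A10. A gene was taken as measured where the platform annotation gave a probe set, the array's unit of measurement, that symbol alone. By this rule 7 of the 8 genes were measured, by 18 probe sets, and 15 of these had a value over 4 on at least 3 arrays, the level used as the filter on dim signals. All 7 genes passed that filter and stand among 10729 genes tested. SERPINB2, an intracellular and secreted urokinase inhibitor, had no probe set of that symbol alone and was not analysed here.

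The study measured gene expression in HK-2 cells, an immortalized line from the human renal proximal tubule, to look for signatures of kidney toxicity. Ota, a compound known here by this label only, was given at a high dose for 24 h or 72 h, and control cells had the vehicle alone for the same times. Each of the 4 groups held 3 Affymetrix arrays, called biological replicates in the labels, 12 arrays in all. The labels give neither the full name of Ota nor its amount. All groups, controls included, grew in a medium with epidermal growth factor, hydrocortisone, insulin, transferrin and selenite, so every comparison was made in cells exposed to these factors. The labels do not say whether the replicates came from separate cultures, so p-values measure only the spread between these samples.

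Plasminogen activation is a proteolytic cascade at the cell surface. Urokinase, the product of PLAU, is secreted as an inactive precursor and binds its receptor, the product of PLAUR, a protein held in the membrane by a glycolipid anchor and without a cytoplasmic tail. The bound enzyme cleaves plasminogen to plasmin, which degrades fibrin and matrix proteins and activates further proteases. Tissue-type plasminogen activator, encoded by PLAT, acts mainly on fibrin and on plasminogen held by surface receptors such as the complex of annexin A2 and S100A10. Inhibitors of the serpin family block the activators, and the complex of inhibitor, enzyme and receptor is taken into the cell by receptors of the low-density lipoprotein receptor family. In the kidney, tubular cells produce urokinase, and the system is known for its part in matrix turnover and in the response to injury.

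The stretches before the RefSeq transcription start (GRCh38.p14) are given for the receptor, for annexin A2 and for urokinase, because the factors of the AP-1, ETS and NF-kB families measured further on are known regulators of such genes. In each of them 250 bases run 5′ to 3′ on the gene's strand up to the base before the start. Capitals mark matches to the AP-1 motif TGANTCA in PLAUR and ANXA2, and to the Sp1 GC box GGGCGG in PLAU.
PLAUR, chr19:43670170-43670419, minus strand: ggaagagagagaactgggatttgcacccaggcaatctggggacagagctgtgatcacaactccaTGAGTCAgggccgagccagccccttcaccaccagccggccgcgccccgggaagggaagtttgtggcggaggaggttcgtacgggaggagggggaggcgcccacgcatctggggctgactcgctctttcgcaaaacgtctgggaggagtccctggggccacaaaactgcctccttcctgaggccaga
ANXA2, chr15:60397987-60398236, minus strand: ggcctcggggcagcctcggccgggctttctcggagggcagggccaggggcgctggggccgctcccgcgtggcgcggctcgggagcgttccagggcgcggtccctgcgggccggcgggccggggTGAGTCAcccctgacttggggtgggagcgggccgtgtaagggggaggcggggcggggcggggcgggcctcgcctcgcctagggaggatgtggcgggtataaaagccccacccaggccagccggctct
PLAU, chr10:73910882-73911131, plus strand: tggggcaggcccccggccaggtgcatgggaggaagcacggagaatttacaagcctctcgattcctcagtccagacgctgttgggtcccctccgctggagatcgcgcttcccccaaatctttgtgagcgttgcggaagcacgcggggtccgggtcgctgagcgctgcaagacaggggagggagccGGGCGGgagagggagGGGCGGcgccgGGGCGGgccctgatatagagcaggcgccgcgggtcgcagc
The AP-1 match began 186 bases before the start in PLAUR and 127 bases before it in ANXA2. In PLAU, which has another RefSeq start further upstream, the GC boxes began 66, 51 and 40 bases before the start shown. Motifs were searched on both strands in windows of 250 bases before and 50 bases after the start. Of 9 windows that covered 7 of the genes, 3 held an AP-1 match (PLAUR, ANXA2 and SERPINB2), against 7.71% of 35116 windows in the table. The Sp1 GC box, present in 45% of all windows, had matches in windows of PLAU, SERPINE2, MMP14, ANXA2 and S100A10. The TATA box TATAAA was found in ANXA2 and SERPINB2, against 11.5% of all windows. The cyclic AMP response element TGACGTCA, present in 1.85% of all windows, and the NF-kB consensus, present in 5.91%, had 0 matches in the 9 windows. PLAT had no window in the table. These matches are letters in a window and describe no binding.

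Array-wide measures differed between treated and control cells and bear on every direction given below. On the log2 scale, the median over the tested genes lay between 7.22 and 7.53 on the Ota arrays and between 7.91 and 8.01 on the control arrays at 24 h, and between 7.65 and 7.74 against 7.95 and 7.99 at 72 h. The mean of 24 probe sets for poly-A spike-ins, bacterial transcripts added to the RNA, exceeded that of the controls by 1.85 at 24 h and by 0.89 at 72 h with Ota. Scaling to the spike-ins lowers every Ota difference by those amounts, and centring each array on its median raises it by 0.56 at 24 h and 0.28 at 72 h. All 10 listed epithelial markers passed the filter, and their mean level was 9.62 to 9.89 on the Ota arrays against 10.37 to 10.65 on the controls at 24 h, and 9.42 to 9.73 against 10.63 to 10.82 at 72 h. Of 13 proximal tubule markers 10 had a probe set and only PAX8 passed the filter, so the arrays show an epithelial line with most of the defining markers of the labelled tubule type under the filter. None of 8 endothelial and none of 10 myeloid markers, of which 8 had a probe set, passed it. Of 8 fibroblast markers COL1A1, DCN and LUM did, with a mean level of 9.02 to 9.59 on the Ota arrays and 9.35 to 9.65 on the controls at 24 h, and 8.55 to 9.11 against 7.84 to 8.12 at 72 h. These means hide a split within the lists. At a limma adjusted p under 0.05, 2 epithelial markers were higher and 5 lower with Ota at 24 h. At 72 h 0 were higher and 5 lower. Of 3 fibroblast markers 1 was higher and 1 lower at 24 h, and 1 higher and 0 lower at 72 h. Of all tested genes 20.8% were higher and 40.5% lower at 24 h, and 24.8% and 35.2% at 72 h. The part of these array-wide and marker shifts in the values below was not tested.

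The 7 genes were chosen by function with earlier results of the Ota comparisons known, and PLAUR was selected on its large difference at 72 h. Their values with Ota are therefore given as a description, with the standard error (SE) of each log2 difference and no test. In bulk RNA, a change in the share of cells that express a gene and a change in RNA per cell cannot be told apart.

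PLAUR, the receptor that holds urokinase at the cell surface, differed most. At 24 h its log2 values were 8.20, 7.87 and 8.58 on the Ota arrays, against 5.94, 5.62 and 6.31 on the control arrays. At 72 h they were 9.92, 10.44 and 10.04 with Ota, against 4.38, 4.02 and 4.27 in controls, close to the filter level of 4. The groups did not overlap at either time, and the 4 groups ran in the order Ota 72 h, Ota 24 h, control 24 h and control 72 h with no overlap between neighbours. The difference was 2.26 ± 0.23 (SE, n = 3 arrays a group) at 24 h, or 4.79-fold, and 5.91 ± 0.23 at 72 h, or 60.1-fold. At 72 h 2 of the 10729 tested genes had a larger difference, and at 24 h 203 had. The effect at 72 h exceeded that at 24 h by 3.65 ± 0.32.

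The 3 PLAUR probe sets did not give the same picture at 72 h. These values come from 210845_s_at, the brightest of them, and 211924_s_at differed by 2.28 at 24 h and 5.87 at 72 h. The third, 214866_at, read 6.17, 7.54 and 6.34 with Ota against 4.71, 4.04 and 4.65 in controls at 24 h, and 5.64, 6.42 and 5.55 against 3.15, 4.21 and 3.79 at 72 h. It differed by 2.21 and 2.15, close to the others at 24 h and well under them at 72 h. Between the times with Ota it was lower by a log2 difference of -0.81 with overlapping arrays, where 210845_s_at was higher at 72 h by 1.92 ± 0.23 without overlap. The suffix _s_at marks probes shared by several transcripts, and which transcripts each probe set reads was not analysed here.

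PLAU, the urokinase that PLAUR binds, followed the receptor in the order of its groups. Its values at 24 h were 11.03, 11.09 and 11.27 with Ota, against 10.31, 9.69 and 10.27 in controls. At 72 h they were 12.20, 12.24 and 12.75 with Ota, against 8.93, 8.49 and 9.54 in controls. The highest values were those of Ota at 72 h and the lowest those of the 72 h controls, and neighbouring groups did not overlap. The difference was 1.04 ± 0.26 (SE, n = 3 a group) at 24 h, or 2.06-fold, and 3.41 ± 0.26 at 72 h, or 10.6-fold, with a difference between the effects of 2.37 ± 0.37. The other PLAU probe set, 211668_s_at, differed by 0.86 and 3.22.

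PLAT, the tissue-type activator, had a different course. Its probe set 201860_s_at read 6.72, 6.14 and 6.25 with Ota against 5.17, 4.56 and 4.85 in controls at 24 h. At 72 h it read 4.93, 4.88 and 5.04 with Ota against 3.07, 3.18 and 2.97 in controls, all 3 of them under the filter level of 4. Ota arrays lay above controls at both times, by 1.51 ± 0.19 at 24 h (2.85-fold) and 1.87 ± 0.19 at 72 h (3.67-fold). With Ota, PLAT was lower at 72 h than at 24 h by a log2 difference of -1.42 ± 0.19, and the Ota values at 72 h overlapped the controls of 24 h. The 2 effects differed by 0.36 ± 0.27, little more than the SE.

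SERPINE2 encodes protease nexin-1, a serpin that inhibits thrombin, urokinase and plasmin. It read 12.83, 12.86 and 12.78 with Ota against 11.45, 11.34 and 11.56 in controls at 24 h, and 12.49, 12.61 and 12.95 against 9.43, 8.88 and 9.95 at 72 h. The Ota arrays of both times overlapped, above the 24 h controls, and the 72 h controls were lowest. The difference was 1.37 ± 0.23 at 24 h (2.59-fold) and 3.26 ± 0.23 at 72 h (9.59-fold), and with Ota the 72 h and 24 h means differed by -0.14 ± 0.23. The larger difference at 72 h thus stood beside a lower level in the 72 h controls, by a log2 difference of -2.03 from those of 24 h. A dimmer probe set, 227487_s_at, differed by 2.19 and 2.62.

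MMP14, the membrane-anchored metalloproteinase that activates other proteases at the cell surface, was dim, and its differences were small at both times. Its brightest probe set, 160020_at, read 5.34, 5.27 and 4.84 with Ota against 4.78, 5.02 and 4.01 in controls at 24 h, with overlap, and 5.05, 5.20 and 4.81 against 4.48, 4.38 and 4.47 at 72 h, without. The differences were 0.54 ± 0.24 and 0.58 ± 0.24. That at 24 h was 0.25 without control replicate 3 and 0.75 without control replicate 2. Probe set 202827_s_at differed by 0.08 at 24 h and by 1.34 at 72 h, and 2 further probe sets did not pass the filter.

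ANXA2 and S100A10 encode the subunits of the complex that binds plasminogen and tissue-type activator at the membrane, and both were among the bright genes. ANXA2 read 14.02, 14.16 and 13.98 with Ota against 13.80, 13.91 and 13.77 in controls at 24 h, and 13.91, 13.77 and 14.03 against 12.82, 12.84 and 13.02 at 72 h. Its difference was 0.23 ± 0.13 at 24 h (1.17-fold) and 1.01 ± 0.13 at 72 h (2.01-fold). The groups were apart at both times, by a narrow margin at 24 h, and Ota arrays of 72 h overlapped those of 24 h and the 24 h controls. All 3 ANXA2 probe sets over the filter are of the _x_at kind, which can read near-identical sequences, so the value may include related copies of the gene.

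S100A10 read 14.56, 14.50 and 14.56 with Ota against 14.44, 14.41 and 14.41 in controls at 24 h, and 13.96, 13.92 and 14.13 against 13.49, 13.29 and 13.51 at 72 h. Both 72 h groups lay below both 24 h groups, and within each time Ota was the higher. The differences were 0.12 ± 0.12 at 24 h (1.09-fold) and 0.58 ± 0.12 at 72 h (1.49-fold). A second probe set, 238909_at, differed by 0.33 with overlap at 24 h and by 1.32 without overlap at 72 h.

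**Figure D1:**
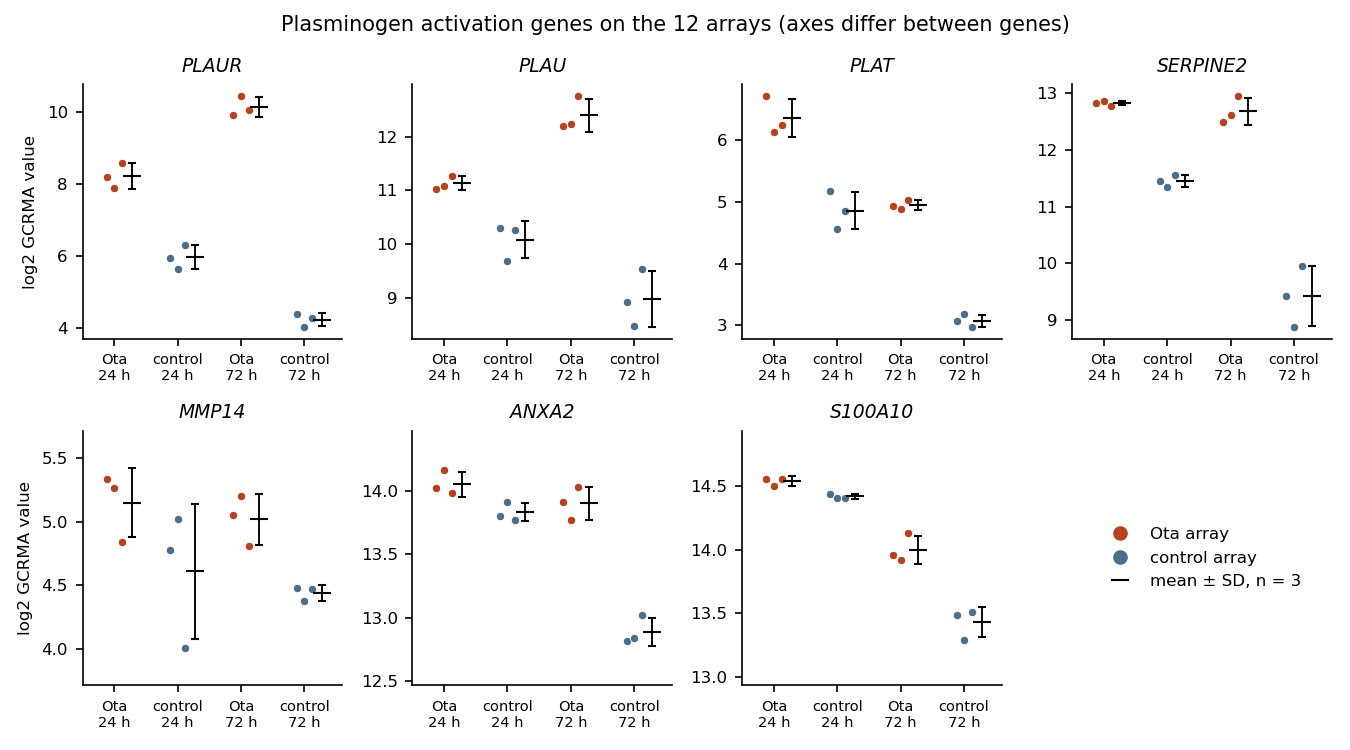
Log2 expression of the 7 measured genes on each of the 12 arrays, with the mean and SD of each group of 3; Ota and control stand side by side at each time. By group mean all 7 were lowest in the 72 h controls, and PLAUR and PLAU were highest with Ota at 72 h. PLAT, S100A10, SERPINE2, MMP14 and ANXA2 were highest with Ota at 24 h, and the last 3 of these overlapped between the Ota times.

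All 15 probe sets over the filter had a higher mean with Ota than in controls at both times, by 0.08 to 2.28 at 24 h and by 0.58 to 5.91 at 72 h, and the groups were apart for 12 of them at 24 h and 15 at 72 h. Over the genes, 6 of 7 were apart and higher at 24 h, against 24.1% of all tested genes, and 7 of 7 at 72 h, against 32.2%. By the threshold used for other genes, a limma adjusted p under 0.05, 4 of 7 would be called higher at 24 h, against 20.8% of all tested genes, and 6 of 7 at 72 h, against 24.8%. The effect at 72 h would be called larger than that at 24 h for 5 of 7 and smaller for 0, against 29.6% and 19.9% of all tested genes. Nothing is read from these shares, since the choice of genes used these comparisons. The median difference of the 7 genes was 1.04 at 24 h and 1.87 at 72 h, beside -0.24 and -0.11 over all tested genes. The plot of differences by comparison, drawn for the brightest probe set of each gene, shows a wide gap between the times for PLAUR, PLAU and SERPINE2. For MMP14 that gap was near 0. Other probe sets of these genes differed in this: 214866_at of PLAUR had 2.21 and 2.15, and 227487_s_at of SERPINE2 had 2.19 and 2.62. For MMP14, 202827_s_at had 0.08 and 1.34.

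**Figure D2:**
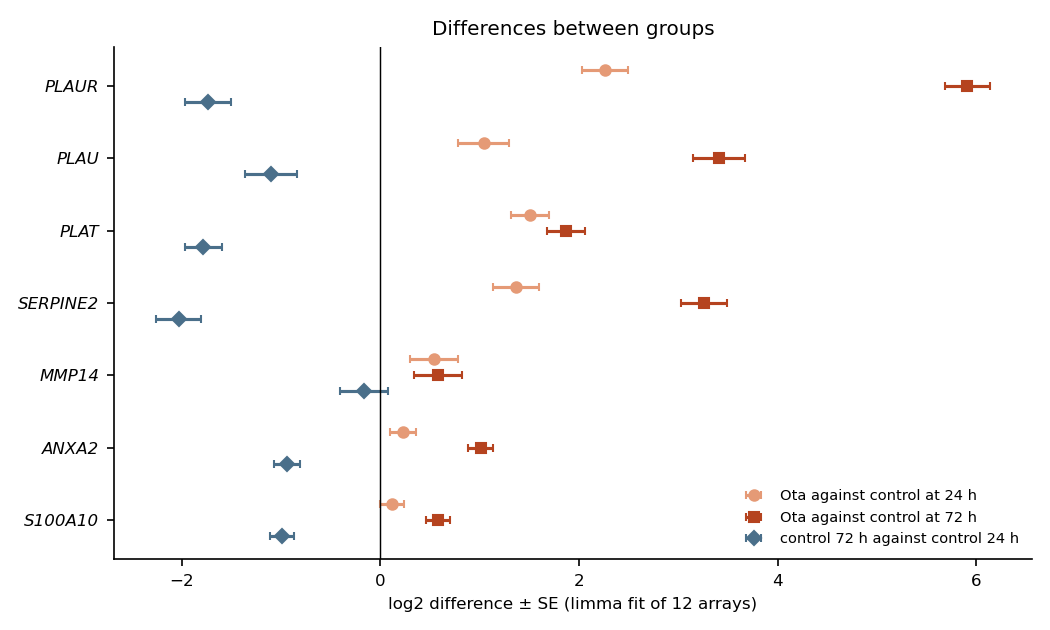
Log2 differences of the 7 genes with their SE, for Ota against control at 24 h and 72 h and for control cells at 72 h against 24 h. PLAUR stands at 5.91 at 72 h, and all 7 genes lie below 0 in the control comparison, MMP14 by less than its SE.

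The directions at 24 h depended on the scaling. With scaling to the poly-A spike-ins, PLAUR alone stayed above 0 at 24 h, at 0.41, and the other 6 genes lay between -1.73 (S100A10) and -0.34 (PLAT). At 72 h PLAUR was at 5.02, PLAU at 2.52, SERPINE2 at 2.37, PLAT at 0.99 and ANXA2 at 0.12, while MMP14 and S100A10 were both at -0.31. With centring on the array median, all 7 differences were above 0 at both times, from 0.68 (S100A10) to 2.82 (PLAUR) at 24 h and from 0.86 (MMP14 and S100A10) to 6.19 (PLAUR) at 72 h. Both settings move all genes of an array alike and leave the order of the genes as it was.

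**Figure D3:**
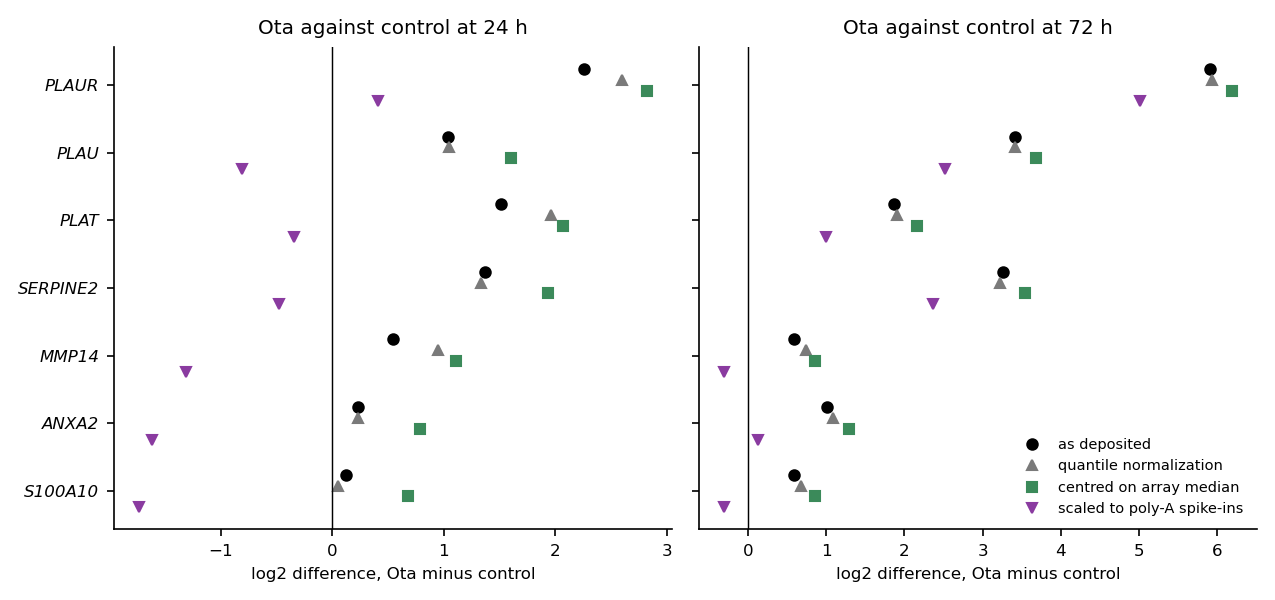
Log2 differences of the 7 genes, Ota minus control, at 24 h and 72 h under the deposited scaling, quantile normalization, centring on the array median, or scaling by spike-ins. In this last setting 6 of 7 genes lie below 0 at 24 h. At 72 h PLAUR, PLAU, PLAT, SERPINE2 and ANXA2 stay above 0, ANXA2 at 0.12.

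Control cells also differed between the times. The control arrays are those of the Ota comparisons, and choosing genes for a high difference at 72 h favours low 72 h controls, so the values of the 7 genes are again a description, with no p. All 7 were lower in the 72 h controls than in those of 24 h. The log2 difference was -2.03 ± 0.23 (SE, n = 3 arrays a group) for SERPINE2, -1.78 ± 0.19 for PLAT and -1.73 ± 0.23 for PLAUR. It was -1.10 ± 0.26 for PLAU, -0.99 ± 0.12 for S100A10, -0.94 ± 0.13 for ANXA2 and -0.16 ± 0.24 for MMP14. The arrays were apart for 6 of the 7, all but MMP14, against 27.1% of all tested genes that were apart and lower. By the threshold 6 of 7 would be called lower and 0 higher, against 13.3% and 12.2% of all tested genes, and nothing is read from these shares. The third PLAUR probe set, 214866_at, was at -0.75 with overlapping arrays.

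Set beside these lower controls, the Ota arrays gave a mixed course from 24 h to 72 h under the deposited scaling. PLAUR and PLAU were higher at 72 h than at 24 h without overlap, by 1.92 ± 0.23 and 1.26 ± 0.26, as were 37.4% of all tested genes. PLAT and S100A10 were lower without overlap, at -1.42 ± 0.19 and -0.54 ± 0.12, as were 24.7%. SERPINE2, ANXA2 and MMP14 overlapped, at -0.14, -0.15 and -0.13. Under the deposited scaling, the wider 72 h gaps of SERPINE2 and ANXA2 went with lower 72 h controls and near-equal Ota levels. Those of PLAUR and PLAU went with lower 72 h controls and higher Ota levels at 72 h. The spike-in mean of the Ota arrays was 9.83 at 24 h and 8.91 at 72 h. Scaling to it raises every Ota change between the times, and those of SERPINE2, ANXA2, MMP14 and S100A10 then lie above 0. The median of the Ota arrays was 7.4 at 24 h and 7.68 at 72 h, so centring lowers every such change. These changes were not refitted.

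The wider pathway was followed in 192 further genes in 11 lists. Of these 180 had a probe set of a single symbol and 110 were tested. At 24 h 38 rose and 19 fell with Ota, or 34.5% and 17.3% of the 110, beside 20.8% and 40.5% of all tested genes, and the median difference was 0.15. At 72 h 30 rose and 32 fell, or 27.3% and 29.1%, beside 24.8% and 35.2%, with a median of -0.05. The split turned with the scaling. With centring on the array median 65 rose and 10 fell at 24 h, and 37 rose and 24 fell at 72 h. With scaling to the spike-ins 2 rose and 99 fell at 24 h, and 9 rose and 67 fell at 72 h. In the controls 12 rose and 25 fell between 24 h and 72 h, or 10.9% and 22.7%, against 12.2% and 13.3% of all tested genes. PLG, which encodes plasminogen, did not pass the filter.

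**Figure D4:**
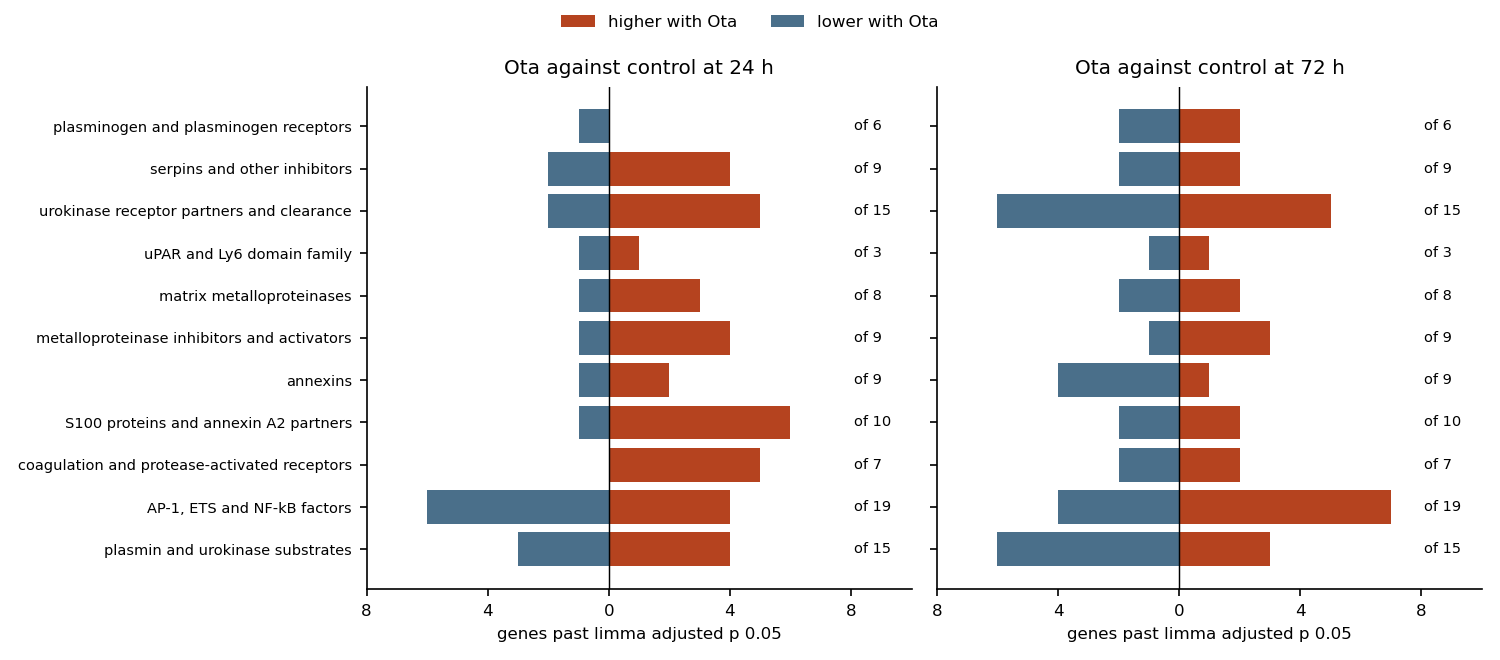
Number of tested genes of each of the 11 lists that were higher (right of 0) or lower (left of 0) with Ota past a limma adjusted p of 0.05, at 24 h and 72 h under the deposited scaling, with the number tested at the right of each bar. The coagulation list held 5 higher and 0 lower genes of 7 at 24 h, and 2 in each direction at 72 h. Of all tested genes 20.8% were higher and 40.5% lower at 24 h, and 24.8% and 35.2% at 72 h. With scaling to the spike-ins 2 of the 110 genes in all lists rose at 24 h.

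Around the receptor, 15 binding partners and clearance receptors were tested. At 24 h 5 rose and 2 fell, and at 72 h 5 rose and 6 fell. The 6 integrin subunits tested split. ITGB5, a beta chain of vitronectin receptors, rose by 1.03 ± 0.16 at 24 h and 2.24 ± 0.16 at 72 h (limma adjusted p = 4.2e-07), and ITGA5, of the fibronectin receptor, rose by 2.17 ± 0.23 at 72 h. Of the others, named after their values were seen, ITGB1 rose by 0.50 ± 0.12 and 0.47 ± 0.12, ITGAV, the alpha chain that pairs with ITGB5, was at -0.70 ± 0.19 at 72 h (limma adjusted p = 0.0068), and ITGA3 did not pass the test at either time. IL6ST, the signalling subunit of the interleukin 6 receptor, rose by 1.12 ± 0.13 at 24 h. MRC2, a collagen receptor that associates with the urokinase receptor, rose by 0.90 ± 0.19 at 24 h and was at -0.79 ± 0.19 at 72 h. M6PR, a lysosomal sorting receptor, rose by 0.68 ± 0.20 at 72 h.

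VLDLR, a receptor that takes up urokinase bound to its inhibitors, was at -1.21 ± 0.26 at 24 h and -3.45 ± 0.26 at 72 h (limma adjusted p = 6.9e-07). IGF2R, which binds plasminogen and the urokinase receptor, was at -1.76 ± 0.27 at 72 h, but 1 of its 3 probe sets went the other way, and without the probe sets marked as shared it stood at 2.24. EGFR was at -1.30 ± 0.20 at 72 h in the growth factor-containing medium. ITGB3 was at -1.55 ± 0.56 at 24 h, a sign that 4 of its 6 probe sets had, and at 0.76 without the shared ones. LRP1, the main clearance receptor, did not pass the test at either time, at -0.01 and -0.23.

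Among 3 tested genes that share the receptor's fold, CD59, a complement inhibitor, rose by 0.76 ± 0.15 at 24 h, with 0.26 and no call without the shared probe sets, and by 1.01 ± 0.15 at 72 h. LYPD1 was at -1.35 ± 0.27 at 24 h and LY6E at -1.13 ± 0.20 at 72 h, both past the test.

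Of 6 tested genes for plasminogen processing and its receptors, 0 rose and 1 fell at 24 h, and 2 rose and 2 fell at 72 h. F12, coagulation factor XII, was at -1.46 ± 0.13 at 24 h. HPN, which encodes the membrane protease hepsin, an activator of pro-urokinase, was at -1.61 ± 0.15 at 72 h (limma adjusted p = 2.5e-06), and HMGB1 rose by 0.56 ± 0.13. Of 9 serpins and other inhibitors, 4 rose and 2 fell at 24 h, and 2 rose and 2 fell at 72 h. SERPINI1, neuroserpin, an inhibitor of tissue-type activator, rose by 1.70 ± 0.28 at 24 h, and SERPINB1, an elastase inhibitor, was at -1.74 ± 0.19, but at -0.15 (limma adjusted p = 0.52) without the probe sets marked as shared. SPINT1, an inhibitor of membrane serine proteases, rose by 1.07 ± 0.19 at 72 h, and SERPINF2, the plasmin inhibitor, was at -1.60 ± 0.24.

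Of 8 matrix metalloproteinases other than MMP14, 3 rose and 1 fell at 24 h, and 2 rose and 2 fell at 72 h. MMP1, interstitial collagenase, averaged 9.50 with Ota against 5.74 in controls at 24 h, a rise of 3.76 ± 0.55 (limma adjusted p = 9.9e-05). At 72 h it averaged 8.30 with Ota against 3.22 in controls, under the filter level, a rise of 5.09 ± 0.55. MMP16, another membrane-type enzyme, was at -0.85 ± 0.17 and -2.38 ± 0.17. Its Ota means were 3.36 and 3.44, under the filter level, and with centring its 24 h value was -0.29 (limma adjusted p = 0.16). Of 9 inhibitors and activators 4 rose and 1 fell at 24 h, and 3 rose and 1 fell at 72 h. TIMP2, which inhibits metalloproteinases and joins MMP14 in the activation of MMP2, rose by 1.00 ± 0.18 and 0.89 ± 0.18. ADAM10 was at -0.36 ± 0.13 at 24 h and -0.55 ± 0.13 at 72 h, and at 0.20 at 24 h with centring.

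Of 9 annexins other than ANXA2, 2 rose and 1 fell at 24 h, and 1 rose and 4 fell at 72 h. ANXA4 rose by 0.49 ± 0.12 and 1.21 ± 0.12. ANXA9 was at -2.25 ± 0.37 at 72 h, with an Ota mean of 2.78 under the filter level. ANXA11 was at -0.55 ± 0.19 at 24 h, a sign that 1 of its 3 probe sets had, and at 0.01 with centring. Of 10 S100 proteins and partners of the annexin A2 complex, 6 rose and 1 fell at 24 h, and 2 rose and 2 fell at 72 h. S100A2 rose by 1.36 ± 0.30 at 24 h. DLC1, a GTPase-activating protein that binds S100A10, rose by 2.13 ± 0.23 at 72 h, with 0.75 and no call without the shared probe sets. AHNAK, a large scaffold that also binds S100A10, was at -1.34 ± 0.32 at 24 h and -1.57 ± 0.32 at 72 h. In the controls between 24 h and 72 h this list had 6 falls and 0 rises.

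Of 7 coagulation genes and protease-activated receptors, 5 rose and 0 fell at 24 h, and 2 rose and 2 fell at 72 h. F3, tissue factor, rose by 1.06 ± 0.36 at 24 h. F2R, the thrombin receptor, rose by 1.36 ± 0.22 at 72 h, and PROCR, the protein C receptor, was at -1.29 ± 0.16. Of 15 substrates of plasmin and urokinase, 4 rose and 3 fell at 24 h, and 3 rose and 6 fell at 72 h. IGFBP3, a carrier of insulin-like growth factors, rose by 2.50 ± 0.46 at 24 h, and CCN2, a matricellular growth factor, was at -2.38 ± 0.55. BDNF, whose precursor plasmin cleaves, rose by 2.80 ± 0.25 at 72 h, and LAMA5, a laminin chain of basement membranes, was at -2.10 ± 0.18. Under the alternative settings of processing the BDNF rise was as low as 0.70 and kept its call.

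Transcription factors of the AP-1, ETS and NF-kB families split in both directions. Of 19 tested, 4 rose and 6 fell at 24 h, and 7 rose and 4 fell at 72 h. ATF3, a stress-induced factor that pairs with Jun proteins, averaged 7.61 with Ota against 4.01 in controls at 24 h. This was a rise of 3.61 ± 0.25 (limma adjusted p = 2.7e-07). At 72 h ATF3 was lower with Ota, at -1.03 ± 0.25 (limma adjusted p = 0.0033). Its 72 h controls stood above those of 24 h by 5.29 ± 0.25. ETS2 rose by 1.59 ± 0.17 at 24 h, in 1 of its 2 probe sets, and by 3.11 ± 0.17 at 72 h in both. NFKB1 rose by 1.00 ± 0.21 at 24 h. FOSL2, an AP-1 subunit, was at -2.34 ± 0.35 at 24 h and rose by 2.14 ± 0.35 at 72 h, where 3 of 4 probe sets went up. FOSL1 rose by 1.39 ± 0.45 at 72 h, with a mean of 3.98 with Ota against 2.60 in controls, both under the filter level.

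JUND, another AP-1 subunit, averaged 6.93 with Ota against 11.42 in controls at 24 h and 9.43 against 12.11 at 72 h, log2 differences of -4.49 ± 0.38 and -2.68 ± 0.38. EGR1, an immediate early factor, was at -1.33 ± 0.23 and -2.24 ± 0.23. ATF2 was at -2.20 ± 0.21 at 72 h. JUN and JUNB, named after their values were seen, did not pass the test at 24 h. At 72 h they rose by 1.31 ± 0.22 and 0.73 ± 0.15, unlike JUND. The AP-1 match in the PLAUR and ANXA2 windows thus stood beside subunits that moved in opposite directions, and no binding was measured.

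Apart from ITGB1, the rises named for other pathway genes at 24 h were those of 14 genes. With scaling to the spike-ins only MMP1, ATF3 and IGFBP3 of these stayed above 0, IGFBP3 at 0.65 without passing the test. At 72 h HMGB1 and M6PR lay below 0 and TIMP2 at 0.00 with that scaling. CD59 was then at 0.12, SPINT1 at 0.18, ANXA4 at 0.32, F2R at 0.47 and FOSL1 at 0.50. None of these passed the test (limma adjusted p between 0.2 and 0.67). Apart from ITGB1, JUN and JUNB, which were not refitted, the other rises named at 72 h kept their calls. The spike-in shifts of -1.85 and -0.89 exceed the rises of ITGB1 at both times and that of JUNB at 72 h. Leaving out single arrays ended the calls of ITGB3, F3, ADAM10 and ANXA11 at 24 h and of FOSL1 and M6PR at 72 h.

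The genes whose profiles lay nearest to PLAUR were found by centring each gene on its mean over the 24 h controls and taking the mean absolute difference over the 12 arrays. The nearest were the histone genes H2BC9, at 0.33, and H1-2, at 0.46, followed by HRH1, a histamine receptor, at 0.70, NECTIN2, an adhesion molecule, at 0.72, and ADM5 at 0.72. H2BC9 averaged 8.68 with Ota against 5.82 in controls at 24 h and 9.59 against 4.32 at 72 h. H1-2 averaged 7.01 against 5.41 and 8.84 against 3.59. Histone genes have close paralogs, so a probe set may read several of them. HRH1 averaged 8.07 with Ota at 72 h, little above its 7.92 at 24 h, where PLAUR was higher by 1.92. ADM5 averaged 3.39 in the 72 h controls and 3.46 in those of 24 h, where PLAUR was at -1.73 between these controls. The likeness is a description over 12 arrays that share their groups.

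**Figure D5:**
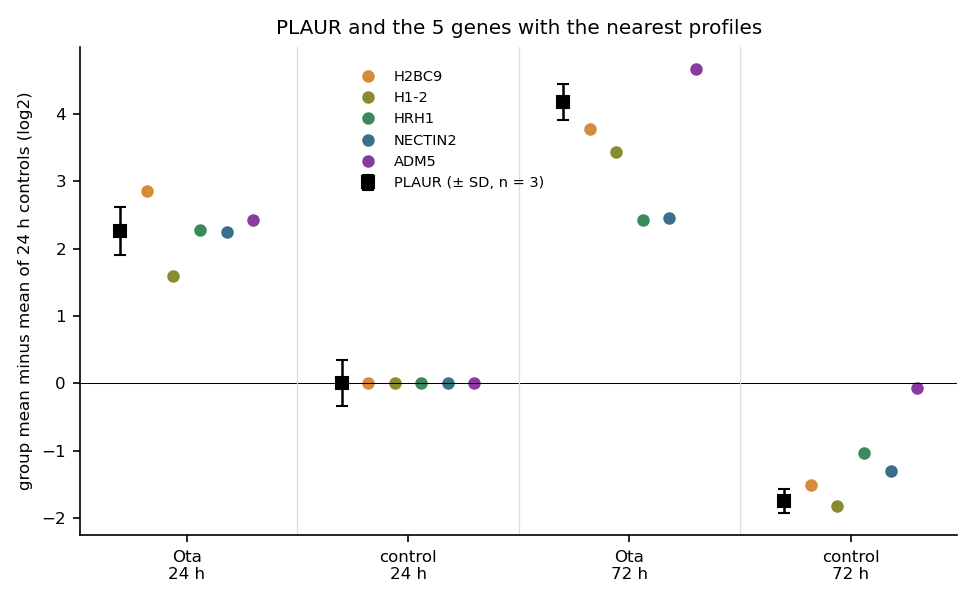
Group means of PLAUR (squares, with SD, n = 3) and of the 5 genes with the nearest profiles, as log2 distance from each gene's mean in the 24 h controls. All 5 genes have the same order of the 4 groups as PLAUR, and with Ota at 72 h ADM5 lies above it and the other 4 below it.

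By the same measure PLAU lay nearest to HBEGF, the heparin-binding growth factor of the epidermal growth factor family, at 0.22, and to BDNF at 0.27. HBEGF averaged 7.38 with Ota against 5.99 in controls at 24 h and 8.26 against 4.95 at 72 h. PLAT lay nearest to TAGLN2, an actin-binding protein, at 0.27, and NCAPD2, a condensin subunit, at 0.28. SERPINE2 lay nearest to PTPRE, a tyrosine phosphatase, at 0.21, and KLF10, a transcription factor, at 0.28. KLF10 averaged 10.87 with Ota against 9.39 in controls at 24 h and 10.68 against 7.73 at 72 h. Distances were smallest for genes that differed little: ANXA2 to NDUFA9 at 0.09 and to CFL1 at 0.10, S100A10 to PGAM1 at 0.11 and to ERI1 at 0.14, and MMP14 to RAB14 and DIP2A at 0.15 each. CFL1 encodes the actin-severing protein cofilin, and PGAM1 a glycolytic enzyme.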

How the data were processed

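Expression was measured on 12 Affymetrix arrays of HK-2 cells, 3 in each of 4 groups taken from the labels. The deposited values are log2 expression per probe set made by the authors with GCRMA, per the submitters' processing notes, which state no version; the arrays normalized together and later filters are not given in the sources used here. The values were used as deposited. Of 54675 probe sets 41097 had 1 symbol in the platform annotation, 1801 several and 11777 none. Single-symbol probe sets with values over 4 on 3 arrays or more were kept, and the brightest by its mean stood for its gene, which left 10729 genes.

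A model of 4 group means was fitted to all arrays with limma 3.58.1 in R 4.3.3 (residual df 8, prior df 3.56), with two-sided tests, Benjamini-Hochberg adjustment over all genes and a threshold of 0.05. The median SE of a log2 difference was 0.212, and the number of arrays limits the precision. The fit was tested on simulated data. The members and lists were chosen with earlier results of these data known; the members' test between the control times was fitted, but its p-values are not printed because it shares the control arrays. All members were named; of each other list the largest change past the threshold in each direction was named, and up to 3 for receptor partners and transcription factors; profiles nearest to a member were named by rank, 5 for PLAUR and 2 for the others. Arrays of equal replicate number deviated together at 24 h (r = 0.12, 0.23 and 0.27), and a model blocked on that number was an alternative. The others were quantile normalization, median centring, spike-in scaling, a filter at 6 or none, averaged probe sets, leaving out probe sets marked _x_at or _s_at, a robust variance trend, the 6 arrays of a comparison, and leaving out each array. Promoter windows and positions are from RefSeq, GRCh38.p14.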

Additional observations from a re-analysis of the deposited data

Results flagged for a closer look

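The size of the Ota effect differed between the times for 29 of the other pathway genes named above. JUN and JUNB, named after their values were seen, are not in this count. The difference is the log2 effect at 72 h minus that at 24 h (limma interaction contrast with Benjamini-Hochberg adjustment over 10729 genes). Of all tested genes 29.6% had a positive and 19.9% a negative difference past the threshold. Most of these genes were named for a large change at 24 h or at 72 h, which favours a difference between the times. The number 29 is therefore not read against the shares of all tested genes. The outermost of the 29 were FOSL2 at 4.49 (adjusted p = 3.7e-05), which was lower with Ota at 24 h and higher at 72 h, and ATF3 at -4.64 (adjusted p = 6.3e-06), at 3.61 and then -1.03. Control cells moved too. From 24 h to 72 h in controls ATF3 rose by 5.29 ± 0.25 and F3, listed below, by 1.71 ± 0.36, while FOSL2 was at -1.29 ± 0.35. A difference between the effects thus includes the change in the controls. The effects at the 2 times also passed the threshold in opposite directions for MRC2, at -1.70 (adjusted p = 0.00034), and PROCR, at -1.92 (adjusted p = 6.9e-05).

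Positive differences were found for HMGB1 (0.71), SPINT1 (0.84), ITGB5 (1.21), ITGA5 (2.27), ANXA4 (0.72), ETS2 (1.52), JUND (1.81), FOSL1 (2.50) and BDNF (1.63). Negative differences among genes for proteolysis and surface receptors were those of HPN (-1.85), SERPINF2 (-1.59), SERPINI1 (-1.03), IL6ST (-0.80), VLDLR (-2.24), IGF2R (-1.17), EGFR (-0.82), LY6E (-1.36), MMP16 (-1.53) and F3 (-1.92). The remaining ones were ANXA9 (-1.48), S100A2 (-1.16), EGR1 (-0.92), ATF2 (-2.69), IGFBP3 (-1.86) and LAMA5 (-1.22). The highest adjusted p among the 29 was 0.0496, for SERPINI1. All these differences are those of the deposited scaling and were not refitted under others. Spike-in scaling lowers the Ota effects by 1.85 at 24 h and 0.89 at 72 h, and so raises every difference between the times. The smallest negative ones, such as that of IL6ST, then lie above 0. Centring, with shifts of 0.56 and 0.28, lowers every difference. Groups of 3 arrays are too small for a test of single outlying arrays.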

How the results depend on the processing

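Of 1687 values of 78 single-gene results under the alternatives, 1587 kept their direction and call or, for values without a test, moved by less than 1 SD, and 28 changed sign. Scaling to the poly-A spike-ins turned most of these. At 24 h it gave ANXA2 -1.62, MMP14 -1.31, PLAT -0.34, PLAU -0.81, S100A10 -1.73 and SERPINE2 -0.48, and ANXA4 -1.36, CD59 -1.09, ETS2 -0.27, F3 -0.79, IL6ST -0.73, ITGB5 -0.82, MRC2 -0.95, NFKB1 -0.85, S100A2 -0.49, SERPINI1 -0.15 and TIMP2 -0.85. At 72 h it gave MMP14 -0.31, S100A10 -0.31, HMGB1 -0.33, M6PR -0.20 and TIMP2 0.00. Centring gave ADAM10 0.20 and ANXA11 0.01 at 24 h. Without probe sets marked _x_at or _s_at, ANXA11 was 0.24 and ITGB3 0.76 at 24 h and IGF2R 2.24 at 72 h. In controls at 72 h against 24 h, MMP14 ranged from -0.46 to 0.04 with each array left out, the highest without 24 h control replicate 2. Calls were lost by other pathway genes in 29 values at 24 h and 15 at 72 h. Without a single array these were, at 24 h, ITGB3 (-1.61 to -1.18; Ota 1 or 3, control 1 or 2), F3 (0.89 to 0.96; Ota 1 or 3, control 2 or 3), ADAM10 (-0.38 to -0.29; Ota 1 or 2, control 2 or 3) and ANXA11 (-0.56 to -0.39; Ota 1 or 3, control 1 or 2), and at 72 h FOSL1 (0.87 to 1.35; Ota 1 or 3, control 1 or 3) and M6PR (0.51 to 0.55; Ota 3 or control 2). With the spike-ins, the other pathway genes called numbered 101 at 24 h against 57 under the deposited scaling, and 20 against 37 in the control comparison. In that comparison 6 of 7 members would be called lower under the deposited scaling, against 13.3% of all tested genes. Without probe sets marked _x_at or _s_at, a setting that drops PLAU, PLAT and ANXA2, 2 of 4 would be. With the spike-ins 5 would be, and a value over 6 left no MMP14. Nothing is read from the counts of member calls in controls, here or below, because the choice of genes bears on these control arrays. Leaving out each array in turn gave PLAUR 2.08 to 2.44 at 24 h and 5.75 to 6.02 at 72 h, PLAU 0.84 to 1.15 and 3.16 to 3.68, SERPINE2 1.32 to 1.43 and 2.99 to 3.53, MMP14 0.25 to 0.75 and 0.49 to 0.68, and 6 member calls in controls each time. With the replicate block 62, 66 and 39 other pathway genes were called at 24 h, at 72 h and in controls, against 57, 62 and 37, and the 6 member calls in controls remained 6. Deviations of equal-numbered arrays correlated at -0.052, 0.14 and 0.19 at 72 h. Signals near the filter level of 4 or under it limit the size of the differences drawn from them. Examples were PLAT at 72 h, MMP14, and PLAUR in the 72 h controls. The 72 h control means of 214866_at (3.72), 227487_s_at (3.18) and 202827_s_at (3.46) lay under that level. The causes of these changes were not tested.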
